A study of Mus musculus with 9 samples.

Results

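The 7 genes Snai1, Snai2, Zeb1, Zeb2, Twist1, Twist2 and Prrx1 encode the transcription factors best known for holding cells in a mesenchymal state, and they are described here among 22367 protein-coding genes. They were chosen by name. Every accessible region from 20 kb upstream of the transcription start site (TSS) to 20 kb past the transcript end was taken. The 3 kb upstream of any annotated TSS of the same gene was its promoter, and everything else was distal. A distal region of a member can thus touch the promoter of another gene, while the distal regions of the genome set beside them touch none. Accessibility was measured by ATAC-Seq, in which the Tn5 transposase cuts open chromatin, in mouse embryonic fibroblasts (MEFs) infected with pMXs retroviruses for Oct4, Sox2, Klf4 and c-Myc (OSKM) and grown without feeders. By the study's account, the MEFs carried an IRES-EGFP cassette in their own Oct4 gene (Pou5f1). The 9 libraries were D0 (MEFs before OSKM), D3 (day 3, unsorted), D6T- and D9T- (days 6 and 9, sorted as Thy-1-negative), D12S+ and D16S+ (days 12 and 16, sorted as SSEA-1-positive), iPSCs (fully reprogrammed, unsorted), and day 6 cells given siRNA against H3.3 (D6 siH3.3) or a non-targeting siRNA (D6 siNT), which are labelled as Thy-1-negative although the study's sample list gives no sort for them. By the study's account, the knockdown was made at the beginning of reprogramming, and its methods place the early siRNA transfection before the OSKM infection. Each condition had 1 library, so no difference below has a replicate check, and the intervals given hold counting error only. In such bulk samples, fewer cells with an open site and a weaker opening in each cell cannot be told apart.

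The libraries held 13213117 to 31714845 tags. Accessibility is given as the highest pileup of a region, the number of extended tags over its summit, per 1000000 tags of the library (CPM), and a site without a region lay below the lowest level called, which was 0.331 to 0.530 CPM. The median of 9818 promoters called in every library was 0.946 CPM in D0, 2.28 in D3, 3.83 in D6T-, 1.51 in D9T-, 2.44 in D12S+, 2.31 in D16S+, 1.20 in iPSCs, 1.45 in D6 siH3.3 and 1.38 in D6 siNT. A rise of CPM from D0 to D6T- was thus shared by most promoters, with a log2 shift of 2.02 in this median, and each level is also given relative to that median (relative level). Of 8 pluripotent markers, 2 had a promoter region in D0 and 8 in each of D12S+, D16S+ and iPSCs. Nanog had one only in these 3 libraries, but Pou5f1 had one in all 9. The Pou5f1 level was 13.1 CPM in D0, with a relative level of 13.9, and the source of so high a level was not tested. Of 4 epithelial markers, 0 had one in D0 and 4 in iPSCs, and Krt8 had one from D3 on, highest in D6T- (2.90 CPM). Of 7 fibroblast markers, which include Twist1 and Prrx1, 6 had one in D0 and 4 in iPSCs; Postn had none after D6T- in the time course, but Col1a1 had one in all 9 libraries. The promoter of Thy1, which encodes the antigen used for sorting, had a region in D0 and D3, none in D6T- or D9T-, and a region again in D12S+, D16S+ and in iPSCs. Of 3 haematopoietic and 3 endothelial markers, 1 to 2 and 0 to 3 had a promoter region in a library, and the part of such cells in the results was not tested.

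The factors belong to separate protein families. Snai1 and Snai2 (Snail and Slug) are zinc finger repressors and Zeb1 and Zeb2 are zinc finger and homeodomain proteins, and both families bind E-boxes in the promoters of epithelial genes such as Cdh1 and repress them. Twist1 and Twist2 are basic helix-loop-helix proteins, and Prrx1 is a paired-related homeobox protein of limb and craniofacial mesenchyme. Loss of the mesenchymal programme and gain of epithelial genes, the mesenchymal-to-epithelial transition, is an early step when fibroblasts are reprogrammed.

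On mm9 (NCBIM37), Snai1 (ENSMUSG00000042821.7) lies on chromosome 2 from 167363695 to 167368314 and Snai2 (ENSMUSG00000022676.6) on chromosome 16 from 14705945 to 14709488. Zeb1 (ENSMUSG00000024238.5) lies on chromosome 18 and is 183608 bp long, and Zeb2 (ENSMUSG00000026872.8) lies on chromosome 2 from 44839154 to 44972915. Twist1 (ENSMUSG00000035799.5) lies on chromosome 12 from 34642536 to 34644682, Twist2 (ENSMUSG00000007805.3) on chromosome 1 from 93698038 to 93744605 and Prrx1 (ENSMUSG00000026586.8) on chromosome 1 from 165175247 to 165243841. Zeb2 and Prrx1 are on the minus strand and the other members on the plus strand. Zeb1 has 8 annotated start sites, Zeb2 has 10 and Prrx1 has 5, while the other members have 1 each. Positions are given below as distances along the gene from its 5′-most TSS.

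When the regions of all libraries were joined, the windows held 90 accessible elements, of which 19 touched a promoter and 71 were distal. Zeb2 had 24 elements, Prrx1 had 16, Zeb1 had 15, Twist2 had 14, Snai1 had 11, Twist1 had 7 and Snai2 had 3. Of the distal elements, 43 lay in gene bodies, 21 downstream and 7 upstream. Most of them were seen in few libraries: 41 of the 71 were called in D3 or D6T- and in no other time-course library, 24 of these in D6T- alone. D3 and D6T- also had the most distal regions of the genome, 80650 and 106526, against 22855 to 61924 in the other time-course libraries. The share of such elements over the genome was not computed, so whether these counts are particular to the members was not tested.

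Sequences are shown for distal fibroblast elements that are followed through the libraries below. They are 200 bases of mm9 around the D0 summit, read 5′ to 3′ on the plus strand, for the 2 highest D0 distal elements of Zeb2 and of Twist2 and the highest of Prrx1 and of Snai1, followed by the 200 bases upstream of the Snai1 TSS. The D0 element of Zeb1 (0.883 CPM) is not shown. None of these windows overlaps an annotated exon. Capitals mark exact matches, on either strand, to the AP-1 site (TGACTCA or TGAGTCA), the TEAD site (GGAATG or CATTCC), the E-box bound by Snail and Zeb proteins (CAGGTG or CACCTG) or the octamer bound by Oct4 (ATGCAAAT or ATTTGCAT).
Zeb2 +140.0 kb (chr2:44832789-44832988): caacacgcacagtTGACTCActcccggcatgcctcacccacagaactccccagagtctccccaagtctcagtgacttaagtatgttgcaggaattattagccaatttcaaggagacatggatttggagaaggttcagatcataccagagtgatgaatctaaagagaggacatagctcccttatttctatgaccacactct
Zeb2 +148.0 kb (chr2:44824826-44825025): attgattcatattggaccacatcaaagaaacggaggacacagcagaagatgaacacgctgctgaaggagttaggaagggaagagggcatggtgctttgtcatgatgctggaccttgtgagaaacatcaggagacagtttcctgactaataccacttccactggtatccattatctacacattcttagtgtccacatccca
Twist2 +15.4 kb (chr1:93713292-93713491): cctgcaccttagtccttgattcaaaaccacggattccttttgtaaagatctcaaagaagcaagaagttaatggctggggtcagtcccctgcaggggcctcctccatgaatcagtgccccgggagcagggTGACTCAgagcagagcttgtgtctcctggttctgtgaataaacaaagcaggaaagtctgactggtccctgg
Twist2 +22.2 kb (chr1:93720083-93720282): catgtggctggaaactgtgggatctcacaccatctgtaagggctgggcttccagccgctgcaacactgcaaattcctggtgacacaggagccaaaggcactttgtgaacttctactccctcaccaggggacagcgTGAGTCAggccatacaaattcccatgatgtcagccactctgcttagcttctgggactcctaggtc
Prrx1 +40.3 kb (chr1:165203372-165203571): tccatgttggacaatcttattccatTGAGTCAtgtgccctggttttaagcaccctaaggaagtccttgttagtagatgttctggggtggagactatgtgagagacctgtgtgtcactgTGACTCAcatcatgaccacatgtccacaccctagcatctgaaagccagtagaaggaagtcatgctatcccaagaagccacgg
Snai1 +15.1 kb (chr2:167378557-167378756): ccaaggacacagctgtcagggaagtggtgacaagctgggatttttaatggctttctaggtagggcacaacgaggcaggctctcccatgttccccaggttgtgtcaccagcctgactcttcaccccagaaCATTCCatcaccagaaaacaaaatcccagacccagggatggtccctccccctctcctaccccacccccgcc
Snai1 promoter (chr2:167363495-167363694): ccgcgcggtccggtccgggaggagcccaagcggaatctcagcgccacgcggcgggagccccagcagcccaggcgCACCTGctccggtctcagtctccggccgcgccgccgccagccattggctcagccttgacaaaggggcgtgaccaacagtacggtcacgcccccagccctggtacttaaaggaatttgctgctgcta

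AP-1 sites, bound by Jun and Fos proteins, stood in 8 of the 16 D0 distal regions of the members (50.0%, 95% Wilson interval 28.0 to 72.0), against 26.0% of all 61924 D0 distal regions in windows of the same length. Of the sequences printed, those of both Twist2 elements and of Zeb2 +140.0 kb held 1 AP-1 site, that of Prrx1 +40.3 kb held 2, and that of Zeb2 +148.0 kb held none. A TEAD site stood in 5 of the 16 regions (31.2%, interval 14.2 to 55.6; 19.5% of all), an E-box in 1 (6.25%, interval 1.11 to 28.3; 10.1% of all) and an octamer in 0 (interval up to 19.4%; 1.02% of all). At D6T-, 19 of 56 distal regions of the members held an AP-1 site (33.9%), close to the 31.4% of all D6T- distal regions. In iPSCs, 1 of 11 held an AP-1 site (9.09%, with 5.21% of all) and 5 of 11 an E-box (45.5%, interval 21.3 to 72.0, with 21.6% of all). Some of these 11 regions begin just inside a gene and are part of an element that touches its promoter. In the promoters, an E-box stood within 200 bases upstream of the TSS of Snai1 and of Zeb1 and of no other member, where 13.7% of 22367 protein-coding promoters hold one. These are matches of letters and not measured binding.

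A promoter region was present for most members at every stage. Of the 7 members, 6 had one in D0 (58.0% of all protein-coding genes), 7 in D3 (67.8%) and 7 in D6T- (68.3%), then 5 in D9T- (50.4%), 6 in D12S+ (63.0%), 6 in D16S+ (63.0%) and 5 in iPSCs (63.9%). In the siRNA libraries 6 had one in D6 siH3.3 (54.3%) and 7 in D6 siNT (54.8%). Twist2 had none after D6T- in the time course, and Prrx1 had none in D0 or in iPSCs.

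Snai1, a direct repressor of E-cadherin (Cdh1), had the highest promoter level of the members from D0 to D6T-, although its interval overlapped those of Snai2, Zeb2, Twist1 and Twist2 in D0, of Twist1 in D3, and of Snai2 and Zeb2 in D6T-. Its level was 1.29 CPM in D0 (95% Poisson interval 0.928 to 1.75), 2.68 in D3, 3.74 in D6T-, 1.29 in D9T-, 2.21 in D12S+, 2.36 in D16S+ and 1.05 in iPSCs (interval 0.700 to 1.52). Relative to the median promoter it was 1.37 in D0, 1.17 in D3, 0.976 in D6T-, 0.850 in D9T-, 0.907 in D12S+, 1.02 in D16S+ and 0.875 in iPSCs. It thus stood at the 81.2 percentile of called promoters in D0 and at the 53.6 percentile in iPSCs. The ratio of iPSCs to D0 was 0.815 in CPM (interval 0.485 to 1.35) and 0.640 in relative level (interval 0.381 to 1.06), and both intervals include no difference. The same region overlaps the promoter of the neighbouring gene Gm11474.

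Snai2, a paralogue expressed in fibroblasts and neural crest, kept a promoter region in all 9 libraries. Its level was 0.788 CPM in D0 (interval 0.510 to 1.16), 1.19 in D3, 2.99 in D6T-, 1.82 in D9T-, 2.27 in D12S+, 2.27 in D16S+ and 1.17 in iPSCs (interval 0.792 to 1.66). The relative level was lowest in D3 (0.522) and between 0.780 and 1.20 at the other stages, so that iPSCs stood no lower than D0. The ratio of iPSCs to D0 was 1.48 in CPM (interval 0.845 to 2.61) and 1.16 in relative level (interval 0.664 to 2.05). Snai2 had no other gene in its window and 1 distal element, at -4.3 kb, with 0.489 CPM in iPSCs alone.

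Zeb1, the E-box repressor that forms a feedback loop with the miR-200 microRNAs, had its highest promoter level in SSEA-1-positive cells, in CPM. Its level was 0.410 CPM in D0 (interval 0.218 to 0.701), 0.628 in D3 and 0.888 in D6T-, below 0.530 in D9T-, then 1.48 in D12S+ (interval 0.964 to 2.16), 1.32 in D16S+ and 0.602 in iPSCs. The relative level was 0.433 in D0 and 0.232 in D6T-, and it was 0.605 in D12S+ and 0.571 in D16S+. The ratio of D12S+ to D6T- was 2.61 in relative level (interval 1.39 to 4.99), while in CPM it was 1.66 (interval 0.885 to 3.18). The promoter region overlaps that of Gm10125, which is antisense to Zeb1.

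Zeb2, the other member of the Zeb family, had its highest promoter level in D6T- and a change in which start site was most accessible. Its level was 0.631 CPM in D0 (interval 0.385 to 0.974), 1.36 in D3, 2.57 in D6T- (interval 1.94 to 3.35), 0.833 in D9T-, 0.908 in D12S+ (interval 0.519 to 1.48), 0.992 in D16S+ and 0.640 in iPSCs. From D0 to D9T- and in both siRNA libraries the highest promoter summit lay 6973 to 7092 bp inside the gene, at an internal start site, and in D12S+, D16S+ and in iPSCs it lay 9, 34 and 49 bp from the 5′-most TSS. The internal element had 0.631 CPM in D0, 2.57 in D6T-, 0.738 in D12S+ and 0.640 in iPSCs, and it also overlaps the promoter of Gm13476. The 5′ element was not called in D0 and had 1.12 CPM in D6T-, 0.908 in D12S+ and 0.640 in iPSCs, so the 2 elements were of like level in iPSCs. The ratio of D12S+ to D6T- was 0.353 in CPM (interval 0.189 to 0.626) and 0.555 in relative level (interval 0.297 to 0.982).

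Twist1, a basic helix-loop-helix factor of mesoderm and cranial mesenchyme, stood lower among promoters after D3. Its level was 0.788 CPM in D0 (interval 0.510 to 1.16), 1.82 in D3, 1.96 in D6T-, 0.681 in D9T-, 1.02 in D12S+, 0.897 in D16S+ and 0.527 in iPSCs (interval 0.288 to 0.884). The relative level was 0.833 in D0, 0.797 in D3, 0.512 in D6T-, 0.450 in D9T-, 0.419 in D12S+, 0.388 in D16S+ and 0.438 in iPSCs. In percentiles of called promoters it stood at 45.7 in D0, 55.4 in D3 and 7.04 in iPSCs. The ratio of D16S+ to D0 was 0.465 in relative level (interval 0.242 to 0.880) but 1.14 in CPM (interval 0.593 to 2.15). In iPSCs the fall depended on the region taken, since a separate region that begins inside the gene, and so counted as distal, reached 0.865 CPM. With all regions within 1 kb either side of the TSS, the relative level in iPSCs was 0.719 in place of 0.438, and the log2 ratio of iPSCs to D0 in CPM turned from -0.58 to 0.13.

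Twist2, the paralogue known from dermis, was the member with no promoter region from D9T- on. Its level was 0.725 CPM in D0 (interval 0.460 to 1.09), 0.893 in D3 and 1.68 in D6T- (interval 1.18 to 2.33), and no region was called in D9T- (below 0.530), D12S+ (below 0.454), D16S+ (below 0.425) or in iPSCs (below 0.376). Day 6 cells with siRNA still had it, at 0.536 CPM in D6 siH3.3 and 0.643 in D6 siNT. The level in D6T- was at least 3.71-fold higher than in D12S+ in CPM and at least 2.36-fold higher in relative level. Between D0 and iPSCs the level was at least 1.93-fold lower in iPSCs in CPM and at least 2.45-fold lower in relative level. The window of Twist2 holds no other annotated gene.

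Prrx1 had a promoter region in the time course from D3 to D16S+ but in neither D0 nor iPSCs. No region was called in D0 (below 0.347 CPM), and the level was 0.662 CPM in D3, 1.78 in D6T- (interval 1.26 to 2.44), 0.681 in D9T-, 0.681 in D12S+ and 0.567 in D16S+, with no region in iPSCs (below 0.376). At D3, D6T-, D9T- and D16S+ the summit lay 21517 to 21685 bp inside the gene, at an internal start site, and in D12S+ it lay at -901 bp from the 5′-most TSS. In D16S+ a region that begins just inside the 5′ end had 0.661 CPM and one at +1.5 kb had 1.09, both above the 0.567 of the internal start site. The ratio of D12S+ to D6T- was 0.384 in CPM (interval 0.182 to 0.750) and 0.602 in relative level (interval 0.286 to 1.18), but it sets the 5′ element in D12S+ against the internal one in D6T-. With the 5′-most TSS alone the log2 ratio in CPM was -0.22 in place of -1.38, and no longer 2-fold. The internal element itself was not called in D12S+ (below 0.454 CPM). The level in D6T- was at least 5.12-fold higher than in D0 in CPM and at least 1.26-fold higher in relative level.

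**Figure D1:**
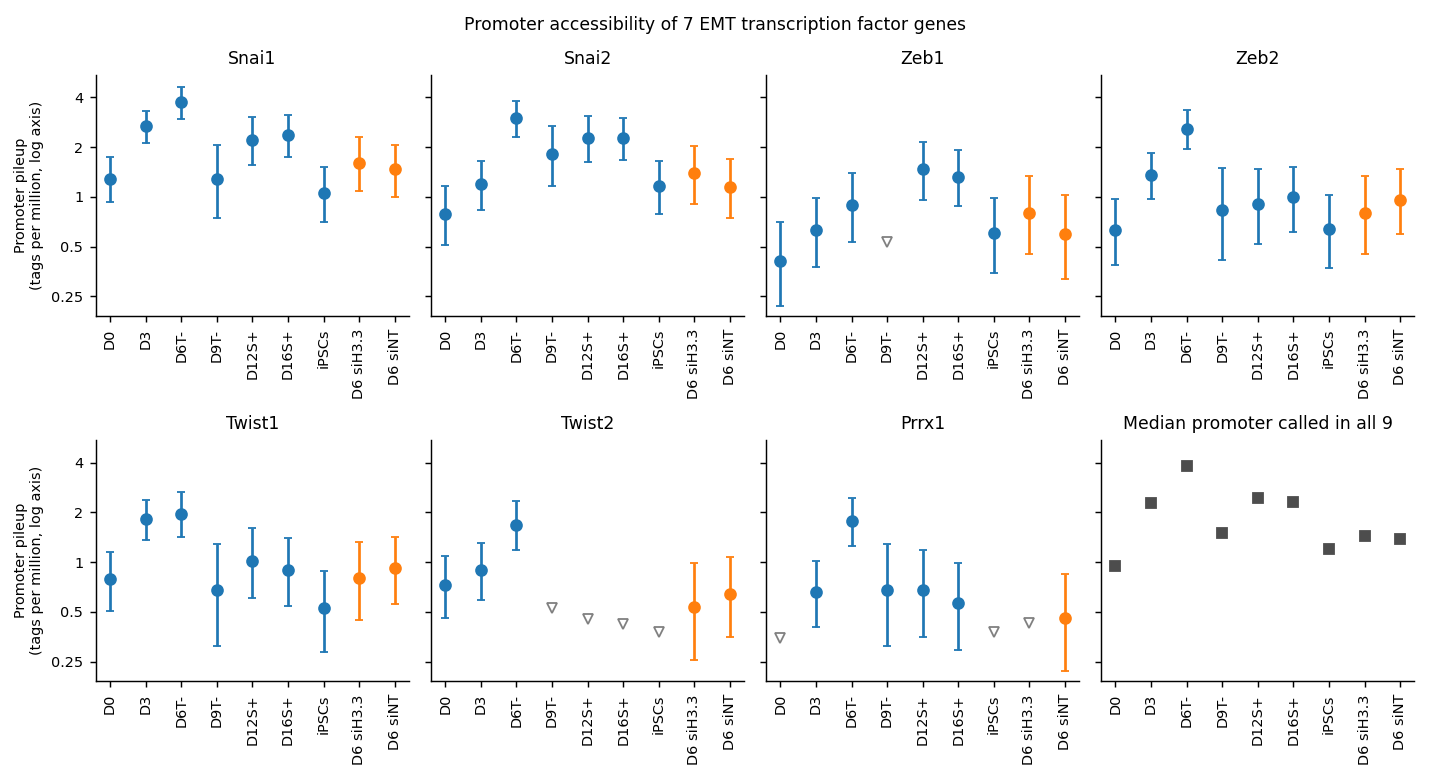
Promoter pileup in CPM (log axis) of the 7 genes in the time course (blue) and the siRNA libraries (orange), with 95% Poisson intervals; open triangles are the lowest level called where no region was present, and squares give the median of promoters called in all 9 libraries. Levels peak in D6T- for 6 genes, as the median does, while Zeb1 is highest in D12S+ (1.48).

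**Figure D2:**
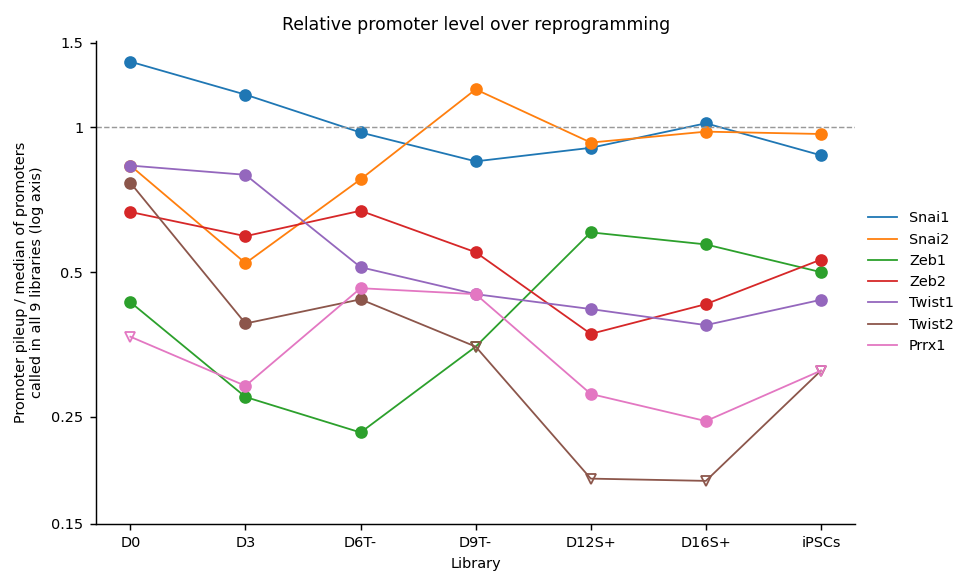
Promoter pileup of each gene divided by the median of promoters called in all 9 libraries (log axis) over the time course; open triangles are upper limits where no region was called, and lines through them only join the points. Snai1 and Snai2 lie near 1 in iPSCs (0.875 and 0.969), and Twist1 lies at 0.438, or at 0.719 with the region that begins just inside the gene.

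A count of promoters that changed at least 2-fold followed the library-wide shift. All 7 members were at least 2-fold higher in D6T- than in D0 in CPM, but so were 84.5% of 15735 promoters, and in relative level 0 members were (1.93% of promoters). Zeb2, Twist2 and Prrx1 were at least 2-fold lower in D12S+ than in D6T- in CPM (20.02% of promoters), of which Twist2 alone was so in relative level (3.17%). With the 5′-most TSS alone Zeb2 (-0.30 in place of -1.50 on the log2 scale) and Prrx1 (-0.22 in place of -1.38) were no longer 2-fold lower in CPM, since for both genes the D6T- value is that of an internal start site and the D12S+ value that of the 5′ element. The internal element of Zeb2 itself went from 2.57 CPM in D6T- to 0.738 in D12S+, and from 0.671 to 0.302 in relative level. The internal element of Prrx1 had 1.78 CPM in D6T- and was not called in D12S+ (below 0.454). For iPSCs against D0, 0 of the 6 members with a region in either library were at least 2-fold lower in CPM (2.26% of promoters), and Twist2 was in relative level (5.39%). Over the 6 members measured, the median log2 relative level of iPSCs over D0 was -0.49, beside 0.04 over all protein-coding genes. The value of Twist2 in it is a bound. This median also depends on the promoter taken, and it was not computed for other promoter windows. With 1 kb either side of the 5′-most TSS, the log2 ratio in CPM was at least 0.88 in place of 0.02 for Zeb2, which had no region there in D0. For Twist1 the log2 ratio was 0.13 in place of -0.58, and the other members kept their values.

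In the time course, distal regions of the members were most frequent in D3 and D6T-. The members had 16 distal regions in D0, 39 in D3, 56 in D6T-, 9 in D9T-, 11 in D12S+, 9 in D16S+ and 11 in iPSCs. A region that began just inside a gene counted as distal here even where its joined element touched the promoter. By joined elements, 54 distal elements were called in D6T- and 7 in iPSCs. Per 10000 distal regions of the library this was 2.58 in D0, 4.84 in D3, 5.26 in D6T-, 3.94 in D9T-, 2.92 in D12S+, 2.86 in D16S+ and 2.73 in iPSCs. The siRNA libraries stood near D3, with 4.41 in D6 siH3.3 (14 regions) and 4.89 in D6 siNT (15 regions). Zeb2 gave 17, Prrx1 gave 12 and Zeb1 gave 11 of the 56 regions in D6T-. Zeb1 had 11 distal regions in D6T- and 0 in D12S+, D16S+ and in iPSCs.

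Of the 16 D0 distal regions of the members, 15 were called in D3 (93.8%, interval 71.7 to 98.9; 57.7% of all D0 distal regions) and 15 in D6T- (93.8%; 63.3% of all). Afterwards 3 were called in D9T- (18.8%, interval 6.59 to 43.0; 18.8% of all), 4 in D12S+ (25.0%, interval 10.2 to 49.5; 27.6% of all), 1 in D16S+ (6.25%, interval 1.11 to 28.3; 15.1% of all) and 1 in iPSCs (6.25%, interval 1.11 to 28.3; 16.2% of all). From D9T- on, the interval of each share included the share of all D0 distal regions. The single region also called in iPSCs was Snai1 +15.1 kb, which overlaps the promoter of Gm11476. Of the 11 distal regions in iPSCs, 2 were called in D0 (18.2%, interval 5.14 to 47.7, with 23.9% of all). These 11 include regions that begin just inside a gene and are part of an element that touches its promoter. The Zeb2 region, at its internal start site, and the Twist1 region called in D0 are of this kind. With elements joined over all libraries, 7 distal elements were called in iPSCs. Starting from the 56 regions of D6T-, 6 were called in D12S+ (10.7%, interval 5.00 to 21.5; 26.0% of all) and 3 in iPSCs (5.36%, interval 1.84 to 14.6; 15.8% of all), and 15 in D6 siNT (26.8%, interval 17.0 to 39.6; 25.7% of all).

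**Figure D3:**
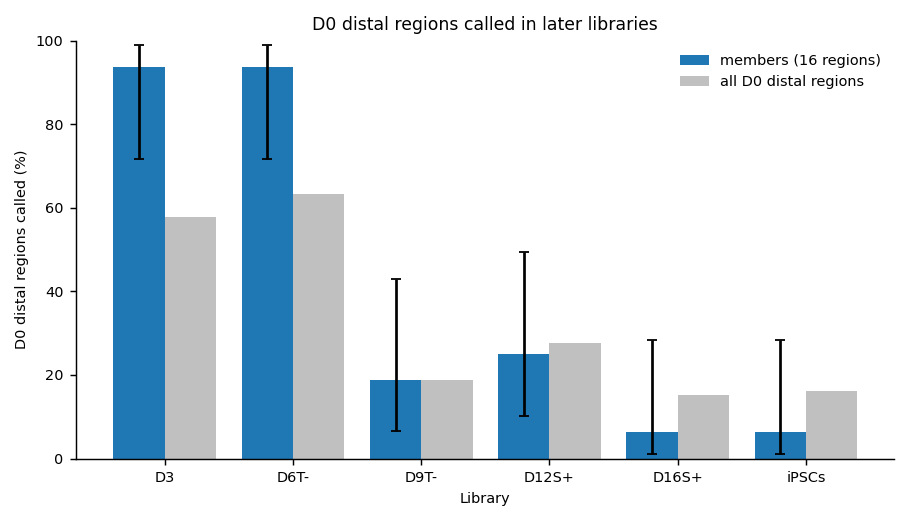
Share of D0 distal regions called in each later library (percent), for the 16 regions of the members (blue, with 95% Wilson intervals) and for all D0 distal regions (grey). The members' share is 93.8% in D3 and D6T- and 6.25% in iPSCs.

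The strongest D0 distal elements belonged to Zeb2 and Twist2. Zeb2 +140.0 kb, which lies 6.3 kb past the end of the gene, had 1.39 CPM in D0, 1.26 in D3 and 1.22 in D6T- and no region in any later or siRNA library. Zeb2 +148.0 kb, 14.2 kb past the end, had 1.20 CPM in D0, 2.02 in D3, 3.27 in D6T-, 0.908 in D9T- and 1.08 in D12S+, and none in D16S+ or in iPSCs. The first thus stayed at a like CPM from D0 to D6T-, in which the median promoter went from 0.946 to 3.83, and the second was highest in D6T- in CPM. In relative level both were highest in D0, at 1.47 and 1.27, and had 0.317 and 0.854 in D6T-. Of the 16 D0 distal elements of the members, 13 were highest in D6T- in CPM, but 14 were highest in D0 in relative level.

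Twist2 +15.4 kb, in the gene body, had 1.32 CPM in D0, 1.98 in D3, 3.27 in D6T-, 0.908 in D9T-, 1.19 in D12S+ and 0.614 in D16S+, and no region in iPSCs. It was still called in D12S+ and D16S+, where the Twist2 promoter was not. Twist2 +22.2 kb had 0.851 CPM in D0, 1.26 in D3, 2.24 in D6T- and 0.625 in D12S+, and none in D9T-, D16S+ or in iPSCs. From D0 to D6T-, the relative level went from 1.40 to 0.854 for Twist2 +15.4 kb and from 0.900 to 0.585 for Twist2 +22.2 kb. Among the AP-1-bearing elements, Prrx1 +40.3 kb had 0.536 CPM in D0, 1.19 in D3 and 2.85 in D6T-, a ratio of 5.32 over D0, and no region later in the time course. Prrx1 +61.1 kb had 0.347 CPM in D0, the lowest level called there, and 1.73 in D6T-, a ratio of 4.99. In relative level Prrx1 +40.3 kb went from 0.567 in D0 to 0.744 in D6T-, and Prrx1 +61.1 kb from 0.367 to 0.451. Twist1 had no distal region in D0, and its element 10.0 kb from the start site had 0.982 CPM in D6T-, at least 2.83-fold above D0, and that at 9.2 kb had 0.561, at least 1.62-fold above. In relative level these Twist1 elements stood at 0.256 and 0.146 in D6T-, below 0.367, the lowest level called in D0.

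Elements without a D0 region were called along the gene bodies of Zeb1 and Zeb2 in D3 and D6T-. Zeb1 +148.7 kb was the single D0 distal element of that gene, with 0.883 CPM in D0, 0.695 in D3 and 0.888 in D6T- and none later. Zeb1 +74.6 kb had 0.562 CPM in D3 and 1.17 in D6T-, at least 3.37-fold above D0, and Zeb2 +50.1 kb had 0.595 CPM in D3 and 1.45 in D6T-, at least 4.18-fold above D0, and was called again in D9T- (1.14) and D16S+ (0.567). Zeb1 +102.6 kb had 1.08 CPM in D6T-, at least 3.10-fold above D0, and 0.605 in D9T-. Zeb2 +67.9 kb went from 0.504 CPM in D0 to 1.73 in D6T-, a ratio of 3.43, with no later time-course region. Over the same interval the median promoter rose by 2.02 on the log2 scale. In relative level, Zeb1 +74.6 kb (0.305) and Zeb1 +102.6 kb (0.280) lay in D6T- below 0.367, the lowest level called in D0. Zeb2 +50.1 kb (0.378) lay close to that limit, and Zeb2 +67.9 kb went from 0.533 in D0 to 0.451. A rise beyond the library-wide shift was thus not shown for these elements.

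A smaller set was seen late. Snai1 +5.4 kb is an example of the opposite kind, with 0.694 CPM in D0, 0.695 in D3 and 0.935 in D6T- and no region from D9T- on, while Snai1 -5.8 kb had 0.852 CPM in D12S+ alone, at least 2.46-fold above D0. In relative level Snai1 -5.8 kb stood at 0.349 in D12S+, below 0.367, the lowest level called in D0. D12S+, D16S+ and iPSCs had 37695, 31503 and 40262 distal regions of the genome, fewer than D0, D3 or D6T-. No genome-wide share was computed for elements seen late alone. Of the 71 distal elements, 6 were called in D12S+, D16S+ or in iPSCs and in none of D0, D3 and D6T-. Snai1 +2.1 kb, inside the gene, was the element of this kind seen in more than 1 library, with 0.738 CPM in D12S+, 0.850 in D16S+ and 0.677 in iPSCs. Prrx1 +1.5 kb was called from D3 to iPSCs, with 0.562 CPM in D3, 1.09 in D16S+ and 0.527 in iPSCs, and not in D0.

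**Figure D4:**
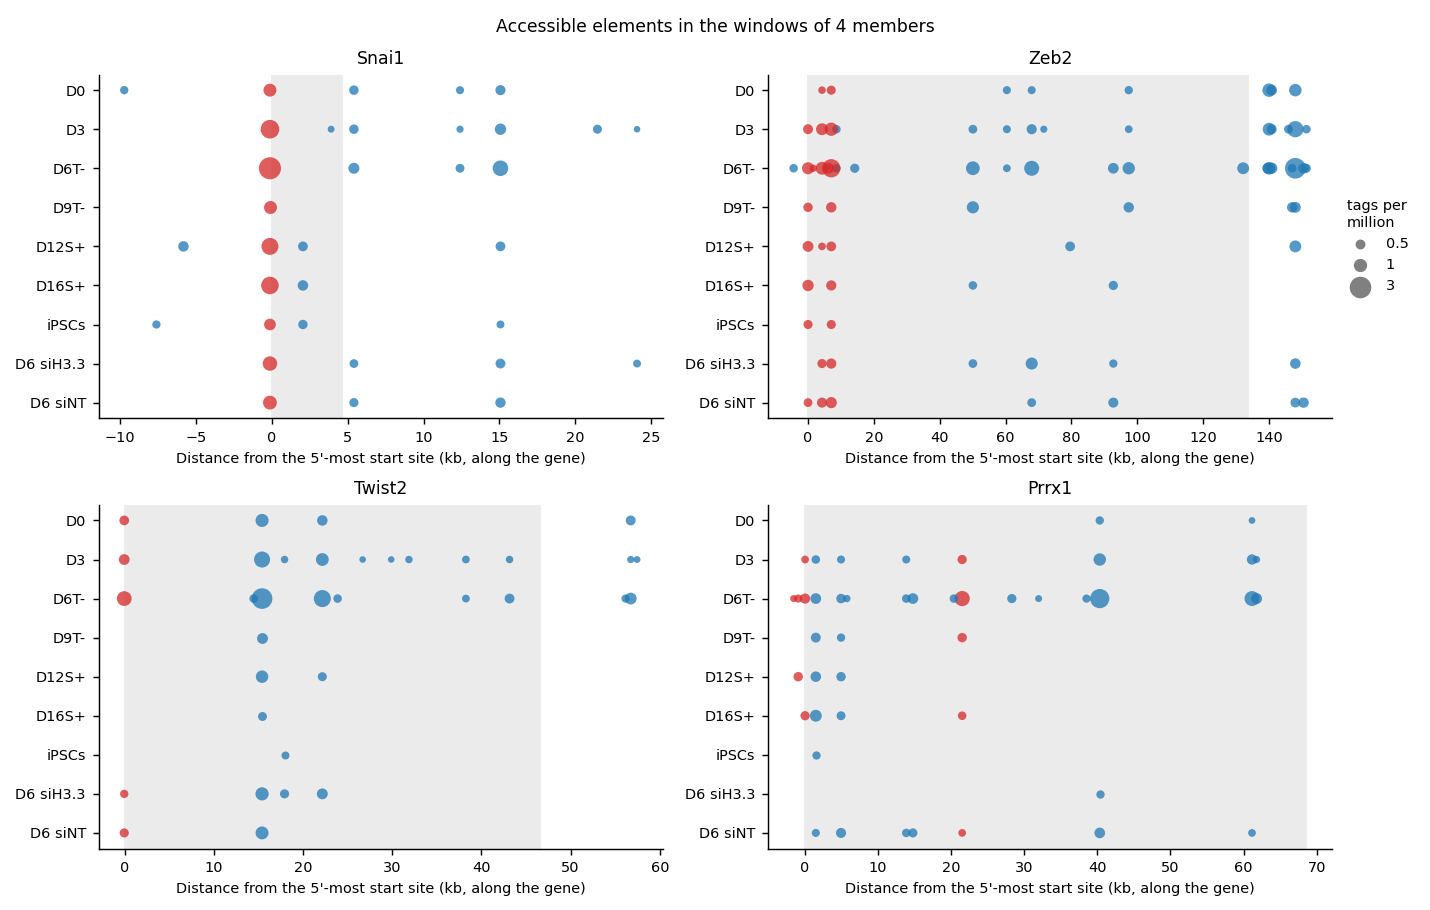
Accessible elements of Snai1, Zeb2, Twist2 and Prrx1 by library, at their distance in kb from the 5′-most start site; circle area is proportional to CPM, red marks promoter elements, blue distal elements, and grey the gene. Zeb2 +148.0 kb (3.27 in D6T-) and Twist2 +15.4 kb (3.27) are the largest distal circles, and few distal circles remain in iPSCs.

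H3.3 is a histone variant deposited outside replication, and the siRNA pair asks whether its early knockdown left accessibility altered at day 6. The study reports this knockdown as transient, made at the beginning of reprogramming and limited to its early phase. ATAC-Seq does not measure H3.3, so the knockdown itself is not checked here. For the promoters, 0 of 7 members differed at least 2-fold between D6 siH3.3 and D6 siNT (1.84% of 12929 promoters). The ratio of D6 siH3.3 to D6 siNT was 1.09 for Snai1 (interval 0.642 to 1.86), 1.21 for Snai2 (interval 0.673 to 2.19) and 1.35 for Zeb1 (interval 0.598 to 3.07). It was 0.833 for Zeb2 (interval 0.400 to 1.70), 0.875 for Twist1 (interval 0.417 to 1.80) and 0.833 for Twist2 (interval 0.331 to 2.02), so that changes of up to about these bounds were not detectable at this depth. The Prrx1 promoter had 0.459 CPM in D6 siNT and no region in D6 siH3.3 (below 0.429), and no interval can be given for it. For Zeb1 the highest summit lay at 19 bp in D6 siH3.3 and at 1400 bp in D6 siNT, so the ratio compares separate elements of its promoter.

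Of the 30 member elements called in either siRNA library, 14 were called in both, 10 in D6 siNT alone and 6 in D6 siH3.3 alone. The 14 shared elements had ratios of 0.614 to 1.88 with a median of 0.891, and the interval of each included 1. The 16 elements of a single library had pileups of 9 to 18 tags, against a lowest of 9 called in D6 siNT and 8 in D6 siH3.3. Of the 15 distal regions of D6 siNT, 7 were called in D6 siH3.3 (46.7%, interval 24.8 to 69.9; 71.0% of all), and of the 14 of D6 siH3.3, 7 were called in D6 siNT (50.0%, interval 26.8 to 73.2; 69.1% of all). Prrx1 held 6 of the 10 elements of D6 siNT alone, at 0.459 to 0.780 CPM, and its 1 shared element, +40.3 kb, had 0.872 CPM in D6 siNT and 0.536 in D6 siH3.3, a ratio of 0.614 (interval 0.255 to 1.39). Twist2 +22.2 kb was called in D6 siH3.3 alone, at 0.911 CPM.

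**Figure D5:**
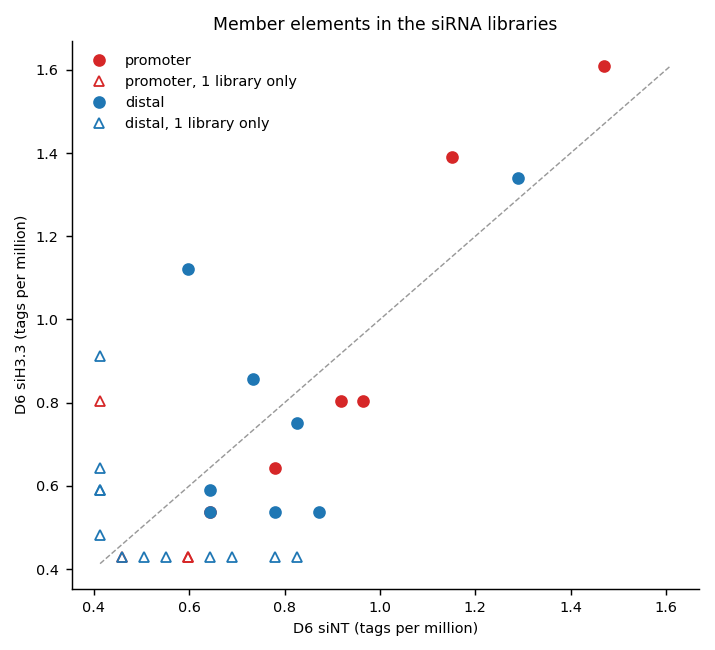
Pileup of member elements in D6 siNT and D6 siH3.3 (CPM); filled circles were called in both libraries, open triangles in 1 library and drawn at the lowest level called in the other, and the dashed line marks equal levels. The shared elements scatter about the line, with ratios of 0.614 to 1.88.

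The D6 siNT library was not a repeat of D6T-, although both were labelled as day 6 Thy-1-negative cells, and whether the siRNA libraries were sorted is not settled by the sources used here. In CPM the member promoters of D6 siNT were 0.258 (Prrx1) to 0.672 (Zeb1) of those in D6T-, while in relative level the ratios were 0.719 (Prrx1) to 1.87 (Zeb1).

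Genes of the same programme were compared from lists by relative level. Of 20 mesenchymal effector genes (such as vimentin, collagens and contractile proteins), 6 of 19 with a region in either library were at least 2-fold lower in iPSCs than in D0 (Vim, Acta2, Tagln, S100a4, Postn and Pdgfrb; 5.39% of all promoters), with a median log2 difference of -0.63 beside 0.04 over all. The effector gene Loxl2 went the other way and was at least 2-fold higher in iPSCs (6.24% of all promoters). Of 20 epithelial genes, 5 were at least 2-fold higher in iPSCs (Cdh1, Cldn3, Cldn4, Esrp1 and Marveld3; 6.24% of all promoters) and 1 lower (Krt19), with a median of 0.47. The number of epithelial genes with a promoter region was 5 in D0, 16 in D3, 15 in D6T-, 7 in D9T-, 18 in D12S+, 19 in D16S+ and 20 in iPSCs, and 10 in D6 siH3.3 and 9 in D6 siNT. The share of all protein-coding genes with a promoter region also went from 58.0% in D0 to 67.8% in D3, 68.3% in D6T-, 50.4% in D9T- and 63.9% in iPSCs. Of 10 related factors, such as Snai3, Prrx2, E proteins and Id genes, 0 were at least 2-fold lower in iPSCs and Tcf12 was higher. The 5 miR-200 genes, whose products target Zeb1 and Zeb2 transcripts, were annotated by their hairpins and not by the start of the primary transcript. A region upstream of the hairpin was called for 2 genes in D0, 4 in D3, 0 in D6T-, D9T- and D12S+, and 2 in D16S+ and in iPSCs. In D0 these were Mir200a and Mir429 (0.441 CPM each). In D16S+ and iPSCs they were Mir200c and Mir141 (0.520 and 0.602 CPM, the same for both genes), so the genes differed between the stages.

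The promoters most like Snai1, Snai2, Zeb1, Zeb2 and Prrx1 over the 9 libraries, by Pearson's r of log2 relative level, were Pttg1ip (0.937) for Snai1, Lsr (0.967) for Snai2, Twistnb (0.979) for Zeb1, Sestd1 (0.971) for Zeb2 and Aplf (0.936) for Prrx1. They were picked as the highest of 9817 to 12935 candidates over 9 points that share library depth, and are given as a description. No member was the nearest of another.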

How the data were processed

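ATAC-Seq peak files of 9 libraries (1 per condition) were analysed, grouped by the sample labels. The authors mapped reads to mm9 with STAR and, by their methods, removed duplicates with Picard, although the input named in the headers carries the tag dup, so duplicates may remain. Per the file headers, peak calling was by MACS2 (version 2.1.0.20151222), with no control library and the local background off, all duplicates in the input kept, a q-value cutoff of 0.05 and tags of 51 bp extended to 200 bp; no shift for the Tn5 cut is recorded. The deposited pileup is a signal, not scaled for depth. The deposited fold enrichment is a ratio to tags spread evenly over the genome, and the deposited p-value and q-value are given as −log10.

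Summits of a peak were joined and overlapping peaks of a library merged. The highest pileup was scaled to 1000000 total tags. Genes and start sites came from GENCODE vM1 on mm9. Regions that shared at least 1 bp were counted as the same. A region that began downstream of a TSS counted as distal. Regions at promoters of other genes were kept among the distal regions of the members but left out of those of the genome. Without them, 14 of the 16 D0 distal regions of the members remained. With 1 library per condition no test was possible: intervals are 95% exact Poisson (levels), exact conditional binomial (ratios) and Wilson (shares), for counting error only, and uncalled sites were set at the lowest level called in that library. PCR copies are not independent molecules, so these intervals may be too narrow. Named were all members, the 2 distal elements per member with the highest D0 level and the 2 with the largest ratio over D0, and the promoters most like members called in at least 6 libraries. The promoter most like that of Twist1 is not reported here. Members, lists and rules were chosen with earlier results of these data known. Alternatives are given in the closing section. Calculations used Python with scipy and pysam, and the functions were tested on simulated data.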

Additional observations from a re-analysis of the deposited data

How the results depend on the processing

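Scaling decided the counts of promoters. Relative to promoters called in all libraries, 0 in place of 7 members were at least 2-fold higher at D6T- than at D0, and the log2 values of Snai1 (-0.49), Snai2 (-0.09), Zeb1 (-0.90), Twist1 (-0.70) and Twist2 (-0.80) turned below 0; 1 member in place of 3 was lower at D12S+ than at D6T-, and 1 in place of 0 was lower in iPSCs than at D0. At 1.5-fold, 5 members were lower at D12S+ than at D6T- (52.6% of promoters) and 1 was lower in iPSCs than at D0 (6.45% of promoters). With the 5′-most TSS alone, or 1 kb either side of it (both chosen after seeing the data), 1 member was lower at D12S+ than at D6T- (20.6% and 18.2% of promoters), since the internal promoters of Zeb2 and Prrx1 were then left out. The share of D0 distal regions called in iPSCs was 0 with the same number of strongest regions per library (14.8% of all D0 distal regions) and with the stronger 50% of the regions (12.4% of all). It was also 0 with a 10 kb window and without promoters of other genes (16.2% of all for both), the latter leaving out the single region that was kept. The share of D6 siNT distal regions called in D6 siH3.3 was 16.7% with the stronger 50% of the regions, 1 of 6, beside 70.8% of all. The other alternatives for these counts and shares, and all those for the AP-1 share (42.4% to 62.5%), stayed within 1.5 times the count or within the Wilson interval. No paired analysis was possible because each condition had 1 library. Depth limits what was seen: a level under 0.331 to 0.530 CPM was not called.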
